A study of Mus musculus with 13 samples.

Results

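The nuclear genome encodes most of the protein subunits of the mitochondrial respiratory chain and of ATP synthase, and the expression of these genes was followed in sorted mouse jejunal epithelial cells under several feeding schedules. The genes were taken by name from the deposited counts. All symbols of the Nduf, Sdh, Uqcr, Cox4 to Cox8 and Atp5 families that name a subunit of complex I to V were used if they had at least 10 counts over the 13 libraries. Of 85 matching symbols, 83 passed, out of 21868 symbols in all. The 83 comprised 36 of complex I, 4 of complex II, 8 of complex III, 18 of complex IV and 17 of complex V. The lowest member had 14 counts in all libraries together, and the 2 symbols left out, Cox7b2 and Cox8c, were listed at 0. The rule used gene names and total counts, not the difference between groups.

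Epithelial cells were sorted by the submitters as EpCAM-positive cells that lacked CD45, CD11b, CD3 and B220. The control group (con, 3 libraries) had no feeding window in the sources used here. Breakfast skipping (BSF, 2 libraries) meant feeding from ZT16 to ZT24, lunch skipping (LSF, 3 libraries) feeding from ZT12 to ZT16 and again from ZT20 to ZT24, and dinner skipping (DSF, 2 libraries) feeding from ZT12 to ZT20, each for 2 weeks. ZT is hours after lights on. BSF_C (3 libraries) is labelled as breakfast skipping combined with control, and nothing more is said of it. The sources used here name no strain, sex, age or sampling hour, and the mice shared 1 environment and cage per the design text. The DSF libraries are called S2 and S3 here, as in the count table. Replicates are called biological in the labels, and p-values measure the spread between these libraries.

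Complexes I and II pass electrons from NADH and succinate to ubiquinone, complex III passes them on to cytochrome c, and complex IV passes them from cytochrome c to oxygen. Complexes I, III and IV pump protons as they do so, and complex V, the ATP synthase, lets the protons flow back and makes ATP. Complex II is built from nuclear genes alone, whereas each other complex also holds subunits encoded in mitochondrial DNA. Absorptive enterocytes of the small intestine are rich in mitochondria, and several subunits have tissue-specific isoforms, such as the muscle forms of cytochrome c oxidase.

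Con was shallower than the rest, with 4851239 to 5202146 counts a library against 7127769 to 8589351, and the labels give no batch, so a separate batch for con and the con treatment cannot be told apart. The sorted identity was visible in every library, where 7 epithelial genes summed to 5489 to 6963 CPM (counts relative to library totals scaled by trimmed means). That sum hid opposite moves, since in BSF 5 of the 7 were called higher than in con and 2 lower, with Epcam at 193.1 CPM in con and 334.9 CPM in BSF and Cdh1 at 2020 and 750.2 CPM. The sum of 8 enterocyte genes was 4590 to 5272 CPM in con and 21270 to 32630 CPM elsewhere, and that of 12 leukocyte genes 14.05 to 17.55 CPM against 195.7 to 335.9 CPM. Crypt and cycling genes, 8 in all, summed to 3339 to 3596 CPM in con and 1813 to 2589 CPM elsewhere, although in BSF 3 were called higher and 4 lower. Of 15 skin keratinocyte genes, Sfn had 783.4 CPM in con and 351.1 CPM in BSF, and the other 14 summed to 657.5 to 762.2 CPM in con and 4.91 to 10.1 CPM elsewhere. These lists move with every comparison against con, and their part in the results below was not tested.

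Respiratory chain genes were mostly higher in each feeding group than in con. The expression filter of edgeR passed 79 of the 83 genes and left out Ndufa1, Ndufa4l2, Cox4i2 and Cox8b. In BSF, 60 of the 79 rose against con and 10 fell, at an adjusted p under 0.05 by edgeR's quasi-likelihood test. The background was large: of all 14300 genes tested in this comparison, 38.3% were called higher and 31.9% lower, 70.2% in all. The members' median log2 fold change was 0.79, beside 0.11 for all genes tested. In bulk RNA, fewer cells of a type and less RNA per cell cannot be told apart.

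Where 4 fold changes stand together below, they are those of BSF, BSF_C, LSF and DSF against con, on the log2 scale. Since all 4 comparisons share the con libraries they are not independent of each other. BSF_C against con gave 57 members higher and 10 lower, with a median of 0.73 (all genes 0.12), where 39.8% of all genes were higher and 33.2% lower (73% in all). LSF against con gave 53 higher and 8 lower, with a median of 0.74 (all genes 0.10), where 38.9% of all genes were higher and 33% lower (72% in all). DSF against con gave 54 higher and 7 lower, with a median of 0.71 (all genes 0.10), where 36.6% of all genes were higher and 31.1% lower (67.7% in all). Over all 83 members, the con libraries lay below all 10 other libraries for 47 and above all of them for 7. The 7 were Sdhc, Sdhd, Uqcrfs1, Ndufb11, Ndufv3, Atp5g2 and Cox7a1. How often con stood apart in this way over all genes was not counted. The counts of 47 and 7 therefore describe the members and show nothing particular to them.

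Scaling by library totals alone raised the median of all genes in BSF against con to 0.29 and that of the members to 0.97, with 61 members higher and 8 lower, so both moved by a like amount. With that scaling, 64.4% of all called genes were higher, against 54.5% with trimmed means. Removing trends with GC content and gene length was an alternative chosen after seeing the data. The members' medians then dropped to 0.50, 0.45, 0.38 and 0.44 in BSF, BSF_C, LSF and DSF. The medians of all genes dropped too, to 0.0013, -0.0011, -0.0026 and -0.0063. Called higher were 44, 45, 40 and 39 members, and called lower 10, 11, 10 and 10. Of all genes in that fit, 68%, 71.4%, 71.2% and 66.1% were called, with 48.4%, 48.7%, 49.1% and 48.5% of the calls higher. Atp5md, which had no annotation, was not in that fit.

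**Figure D1:**
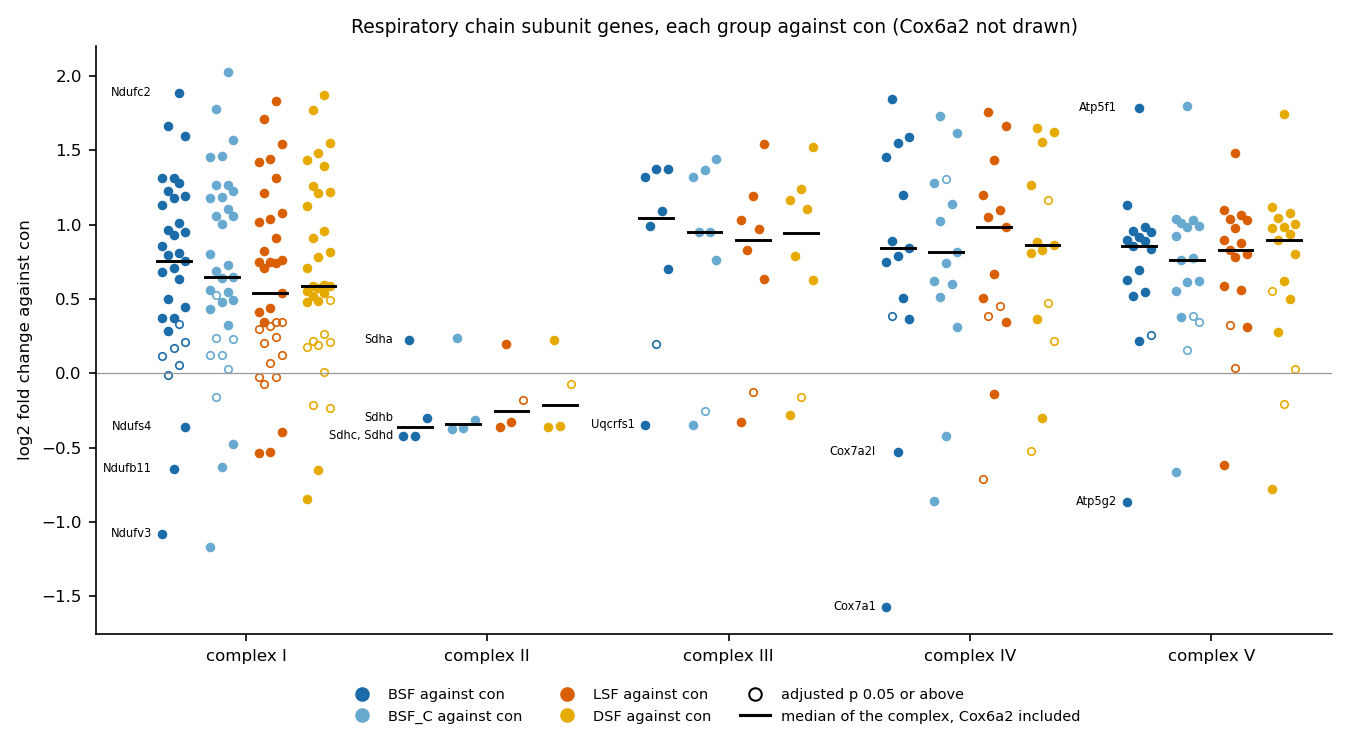
Log2 fold change of each tested subunit gene against con (vertical axis), in 4 columns per complex for BSF, BSF_C, LSF and DSF. Filled points had an adjusted p under 0.05, open points did not, and black bars are the medians. Complex II is the 1 complex whose median lies below 0, at -0.36 in BSF. Cox6a2, at 5.89 in BSF, is left out of the drawing.

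Complex I, the NADH dehydrogenase, rose in its catalytic core. All 7 nuclear core genes rose in both breakfast-skipping groups and 6 of 7 in LSF and DSF, where Ndufs3 had 0.13 and 0.21 (adjusted p = 0.35 and 0.15). Of the 50-base windows of Ndufs3, 39.7% also occur in other genes. Summed over the core, the level was 164.1 to 179.9 CPM in con and 331.4 to 378.1 CPM in the 10 other libraries, so the groups did not overlap. Ndufv1, the subunit that binds NADH, was at 59.7, 55.7 and 60.1 CPM in con and at 143 and 147 CPM in BSF, 166, 165 and 151 CPM in BSF_C, 158, 161 and 152 CPM in LSF, and 168 and 148 CPM in DSF. Every con library was far below every other library. The log2 fold change was 1.31 ± 0.08 (SE) in BSF (adjusted p = 1.50e-21), 1.46 in BSF_C, 1.42 in LSF and 1.43 in DSF. Ndufs1, an iron-sulfur subunit, rose by 0.68, 0.48, 0.54 and 0.59, in the same order, and its call in BSF_C was lost without BSF_C 2 (0.34, adjusted p = 0.054).

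The supernumerary subunits, which surround the core and take no part in electron transfer, were more mixed. Of 28 tested, BSF had 19 that rose and 3 that fell, LSF 15 and 3, DSF 18 and 2, and BSF_C 18 and 3. Ndufc2, a small membrane-arm subunit, had the largest rise of the complex in all 4 comparisons. It was at 2.89, 3.54 and 3.92 CPM in con, 12.8 and 12.7 CPM in BSF, 16, 12.8 and 13.3 CPM in BSF_C, 12.8, 11.2 and 12.8 CPM in LSF, and 14.3 and 10.8 CPM in DSF. Con did not overlap with any other group, and the log2 fold changes were 1.89 ± 0.23 (SE), 2.02, 1.83 and 1.87. Ndufb10, also of the membrane arm, rose by 1.59, 1.77, 1.54 and 1.77. Ndufab1, the mitochondrial acyl carrier protein, rose by 0.79, 0.80, 0.35 and 0.55, and its call in LSF was lost without con 2 (0.26, adjusted p = 0.059).

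Ndufv3, a supernumerary subunit next to the NADH-binding module (chr17:31520115-31531331, plus strand, GRCm38), went the opposite way. It was at 79.3, 71.9 and 85.5 CPM in con, 34.5 and 39.9 CPM in BSF, 33.3, 35.9 and 36.1 CPM in BSF_C, 67.7, 56.7 and 54.9 CPM in LSF, and 41.4 and 46.2 CPM in DSF. Con was above all others, LSF came next, and BSF and BSF_C were lowest. The gene fell by 1.08 ± 0.10 (SE) in BSF (adjusted p = 7.57e-14), 1.17 in BSF_C, 0.40 in LSF and 0.85 in DSF, on the log2 scale. Its neighbour in the complex Ndufv1 rose in the same libraries. Ndufb11, an X-linked membrane-arm subunit, also fell, by 0.64, 0.63, 0.53 and 0.65. Of its 50-base windows, 17.5% also occur in another gene, and it overlaps Rbm10 on the opposite strand. Ndufs4, which stabilises the NADH-oxidising module, fell by 0.36 in BSF (adjusted p = 0.024), 0.47 in BSF_C and 0.54 in LSF, and had -0.24 in DSF (adjusted p = 0.15). Its call in BSF was lost without con 2, at -0.16 (adjusted p = 0.35), without BSF 1 at -0.30 (adjusted p = 0.14), with only the groups compared in the fit with thinned libraries and with totals alone (-0.19, adjusted p = 0.26). Its call in BSF_C was also lost without con 2, at -0.27 (adjusted p = 0.084), and without that library its value in LSF was -0.33.

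Complex II, the succinate dehydrogenase of the citrate cycle, was the complex whose genes were mainly lower than in con. Sdhd, 1 of the 2 membrane anchors (chr9:50596357-50603812, minus strand, GRCm38), was at 626.6, 618 and 706 CPM in con, 495 and 475.8 CPM in BSF, 512, 509.4 and 490.6 CPM in BSF_C, 509.3, 510.8 and 531.7 CPM in LSF, and 523 and 490.4 CPM in DSF. Con lay above all other libraries, and the others overlapped. Sdhd fell by 0.42 ± 0.06 (SE) in BSF (adjusted p = 7.30e-09), 0.37 in BSF_C, 0.33 in LSF and 0.36 in DSF on the log2 scale. The other anchor, Sdhc, fell by 0.42, 0.38, 0.36 and 0.35, again with con above all 10 libraries. With totals alone the falls in BSF were smaller, -0.24 for both Sdhd and Sdhc, and still called. The iron-sulfur subunit Sdhb was at 29.7, 31.6 and 36.6 CPM in con against 24.1 and 28.5 CPM in BSF, and passed in BSF (-0.30, adjusted p = 0.027) and BSF_C (-0.31, adjusted p = 0.011). In LSF it had -0.18 (adjusted p = 0.14) and in DSF -0.07 (adjusted p = 0.63). Leaving out con 3, or BSF 1, or scaling by totals alone ended the call for Sdhb in BSF, at -0.22, -0.20 and -0.12 (adjusted p = 0.14, 0.24 and 0.36). That call was also lost with only the groups compared in the fit (-0.28, adjusted p = 0.077) and with thinned libraries (-0.29, adjusted p = 0.054). In BSF_C its call was lost without con 3 or BSF_C 3 and with totals alone, at -0.23, -0.25 and -0.15.

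Sdha, the flavoprotein subunit that oxidises succinate, rose, unlike its partners. It was at 222, 227 and 242 CPM in con, 264 and 274 CPM in BSF, 271, 271 and 270 CPM in BSF_C, 264, 268 and 259 CPM in LSF, and 277 and 259 CPM in DSF. All 10 libraries were above con, by a small step of 0.23 ± 0.06 (SE) in BSF (adjusted p = 9.39e-04), 0.24 in BSF_C, 0.20 in LSF and 0.22 in DSF. In DSF the call was lost without library S2, at 0.16 (adjusted p = 0.069). Summed over its 4 genes, complex II was at 1169 to 1353 CPM in con and 1019 to 1099 CPM in the other libraries. That gap depends on the scaling, whose trimmed-mean factors were 0.895 to 0.947 in con and 0.989 to 1.049 elsewhere. Relative to library totals alone, con 1 and con 2 were below DSF S2 for this sum, so con overlapped with the others.

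In complex III, the cytochrome bc1 complex, 6 of 8 genes rose in each of the 4 comparisons and 1 fell. Uqcrc1, a core protein without a redox centre, was at 57, 54.1 and 61.7 CPM in con, 148 and 150 CPM in BSF, 162, 167 and 139 CPM in BSF_C, 175, 160 and 168 CPM in LSF, and 175 and 155 CPM in DSF. The con libraries were all below the rest, and the log2 fold changes were 1.37 ± 0.08 (SE) in BSF (adjusted p = 2.41e-21), 1.44, 1.55 and 1.52. Uqcrc2, the second core protein, rose by 0.99, 0.95, 0.97 and 1.17, although 24.2% of its windows are shared with the overlapping gene Pdzd9. Uqcrb, a small subunit at the ubiquinone site, rose by 1.38, 1.37, 1.03 and 1.10, with 43.4% of its windows in other genes. With GC and length trends removed, Uqcrb was at 0.46 in BSF (adjusted p = 0.15), and its call was lost in BSF_C, LSF and DSF too.

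Uqcrfs1, the Rieske iron-sulfur protein that takes electrons from ubiquinol, was the exception (chr13:30540308-30545362, minus strand, GRCm38). It was at 569, 559.3 and 672.8 CPM in con, 467.3 and 475.2 CPM in BSF, 495.3, 454.8 and 467.9 CPM in BSF_C, 494.5, 468.3 and 470.9 CPM in LSF, and 509.6 and 477.1 CPM in DSF. Con was above every other library, and Uqcrfs1 fell by 0.35 ± 0.06 (SE) in BSF (adjusted p = 2.04e-06), 0.34, 0.33 and 0.28 on the log2 scale. With totals alone Uqcrfs1 had -0.17 in BSF and was still called. Since Uqcrfs1 made up 81.8% of the summed CPM of complex III in con and 61.6% in BSF, the sum hid the other genes. It was 734.4 ± 70.5 CPM in con (SD, n = 3) and 765.3 CPM in BSF, and con overlapped with the others. Without Uqcrfs1, the means of the other 7 genes added up to 134 CPM in con, 294.1 and 299 CPM in BSF and BSF_C, and 303.4 and 308.2 CPM in LSF and DSF.

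**Figure D2:**
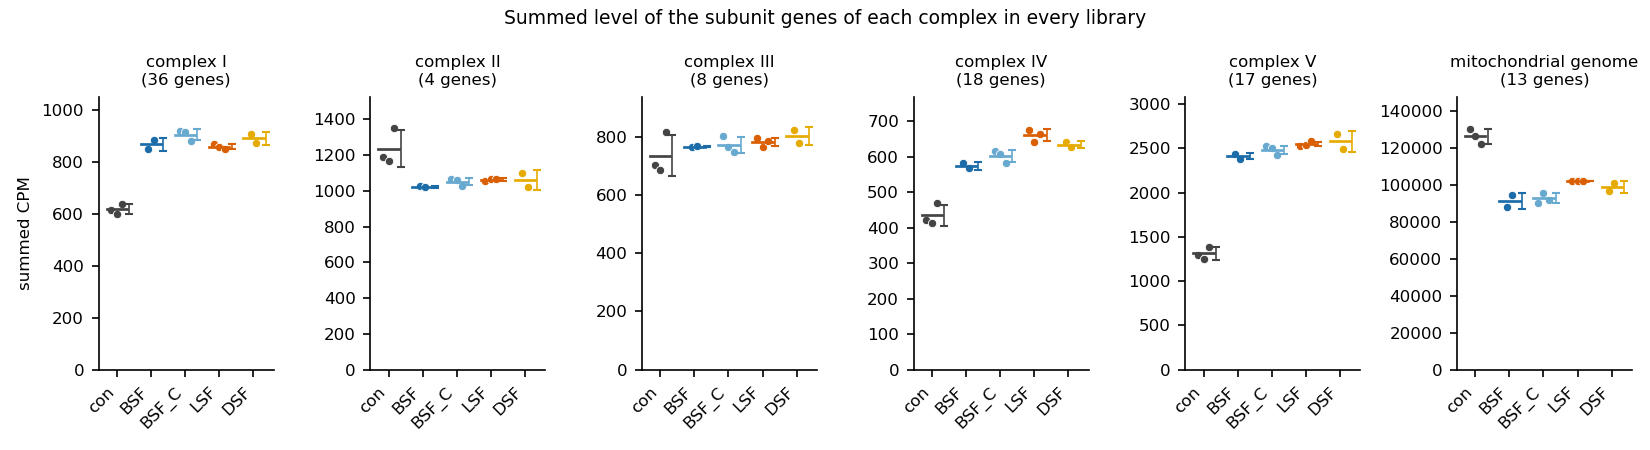
Summed CPM (vertical axis, from 0) of the subunit genes of each complex and of the 13 protein genes of mitochondrial DNA, by group. Points are libraries, lines are means and bars are SD. With trimmed means, con lies below all other libraries for complexes I, IV and V, and among them for complex III. It lies above them for the mitochondrial genes and for complex II, where library totals alone bring an overlap.

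Complex IV, the cytochrome c oxidase, had 12 of its 15 tested genes higher and 2 lower in both breakfast-skipping groups, 11 and 1 in LSF, and 10 and 1 in DSF. These counts, and those of all members, include Cox6a2 and, where it was called, Cox6b2. Both passed the expression filter only through the groups where they are high, so their calls against con are not read as a result. Ndufa4 and Ndufa4l2 are counted here, since Ndufa4 is now known as a subunit of this complex. Cox4i1, the main form of a regulatory subunit, was at 47.7, 48.9 and 59 CPM in con, 97.6 and 88.5 CPM in BSF, 112, 107 and 96.2 CPM in BSF_C, 103, 96.1 and 108 CPM in LSF, and 94.8 and 95.8 CPM in DSF. Con was below all others, and Cox4i1 rose by 0.85 ± 0.09 (SE), 1.02, 0.99 and 0.88 (0.50 in BSF with GC and length trends taken out). Cox5b, a zinc-binding subunit, rose by 1.46, 1.28, 1.10 and 1.65. Cox5a had 0.50 in BSF (adjusted p = 0.047), a call that 13 of 14 alternatives ended, and turned to -0.060 when GC and length trends were removed. Ndufa4 passed in BSF (0.75, adjusted p = 0.0097) and in BSF_C (0.62, adjusted p = 0.020) and turned to -0.083 and -0.17 under that same alternative. Its calls were also lost without con 3, at 0.54 and 0.42, without BSF 2 at 0.70 and without BSF_C 3 at 0.53.

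The isoform pairs of this complex differed in level. The widely expressed form Cox6a1 (chr5:115345642-115348981, minus strand) was at 45.2, 47.2 and 55 CPM in con and between 138 and 162 CPM in the other libraries, and it rose by 1.55 ± 0.09 (SE) in BSF (adjusted p = 1.30e-22), 1.61, 1.66 and 1.62. Cox7a2, also widely expressed, rose by 1.59, 1.73, 1.76 and 1.56 from 1.61 to 2.06 CPM in con. Cox8a rose by 1.20, 1.14, 1.20 and 1.27. When GC and length trends were taken out, Cox6a1 had 0.665 and Cox8a 0.68 in BSF, both still called. Cox7b, a small membrane subunit, rose by 0.89, 0.82, 0.67 and 0.86, but with GC and length trends removed it had 0.11 in BSF (adjusted p = 0.55), where its other 3 calls were lost as well. Without BSF 2 it had 0.59 in BSF. Cox6b1, a subunit on the cytochrome c side, passed in BSF_C (0.60), LSF (0.51, adjusted p = 0.049) and DSF (0.83) and had 0.39 in BSF (adjusted p = 0.18). Of 15 alternatives, 11 ended the call in LSF, and without LSF 3 the value was 0.28 (adjusted p = 0.33). The call in BSF_C was lost without con 2 at 0.48 or BSF_C 1 at 0.48, and with GC and length trends removed at 0.25. That last alternative ended the call in DSF too, at 0.48 (adjusted p = 0.082).

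Other tissue forms, Cox6a2 apart, were at 3.10 CPM or less in every library. Cox7a1, the heart and skeletal muscle form, was at 3.10, 2.91 and 2.76 CPM in con and fell in BSF, to 0.808 and 1.11 CPM (-1.57 ± 0.46 SE, adjusted p = 0.0020), and in BSF_C (-0.86, adjusted p = 0.035). Leaving out con 1, con 2 or BSF_C 3, or scaling by totals alone, ended the call in BSF_C, at -0.82, -0.86, -0.71 and -0.69. So did DESeq2's Wald test, at -0.89 (adjusted p = 0.062). In LSF and DSF Cox7a1 had -0.71 and -0.52 (adjusted p = 0.079 and 0.24). Cox8b and Cox4i2, the muscle and lung forms, had 3 counts each in con and at most 6 in any group and were not tested. Cox6b2, the testis form, had 6 counts in con, 26 and 27 counts in BSF and BSF_C, and 28 and 15 counts in LSF and DSF. It passed the expression filter only through the groups where it is high, so its calls against con are not read as a result. The other members that failed the filter, Ndufa4l2, a paralog of Ndufa4, and Ndufa1, a complex I subunit, had 43 and 52 counts over all 13 libraries.

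Cox7a2l, which joins complexes III and IV into supercomplexes, fell although Cox7a2 rose. It was at 236.6, 222.1 and 267.9 CPM in con, 169.1 and 166.1 CPM in BSF, 174.2, 185.6 and 182 CPM in BSF_C, 225.7, 224.7 and 207.8 CPM in LSF, and 202.3 and 190.5 CPM in DSF. BSF and BSF_C were the lowest groups, and LSF overlapped with con. The log2 fold changes were -0.53 ± 0.07 (SE) in BSF (adjusted p = 1.22e-09), -0.42 in BSF_C, -0.14 in LSF (adjusted p = 0.033) and -0.30 in DSF. With totals alone the value in BSF was -0.35, still called. The LSF call was lost without con 3 at -0.07 or without LSF 3 at -0.10, and under totals alone at -0.04. With only the groups compared in the fit it was lost too, at -0.13 (adjusted p = 0.081). Of the windows of Cox7a2l, 17.8% occur in another gene.

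Cox6a2, the heart and skeletal muscle form of Cox6a1, had the largest rise of all members (chr7:128205435-128206387, minus strand, GRCm38). Con libraries had 2, 2 and 0 counts, BSF libraries 132 and 163, LSF libraries 310, 259 and 250, DSF libraries 264 and 278, and BSF_C libraries 135, 173 and 144. Con was near 0 and the others fell into 2 levels, with BSF and BSF_C at 16.6 to 20.2 CPM and LSF and DSF at 33.2 to 37.4 CPM. The ratio of pooled counts to con was 62.9 in BSF (exact 95% interval 24.3 to 232) and 121 in LSF (47.3 to 447), and LSF to BSF was 1.93 (1.69 to 2.21). These intervals cover counting error only. Cox6a2 too passed the filter only through the groups where it is high, so its calls against con add nothing to these counts.

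The locus carries a second gene with the same pattern. Itgad, an integrin alpha chain of leukocytes, lies on the opposite strand, and its annotated exons share 70 of the 680 exonic bases of Cox6a2, at chr7:128205435-128205504. For Itgad, con libraries had 2, 3 and 1 counts, BSF libraries 148 and 178, LSF libraries 317, 278 and 257, DSF libraries 287 and 299, and BSF_C libraries 145, 186 and 165. The ratio of Cox6a2 to Itgad was thus 0.873 to 0.978 in the 10 libraries other than con. The library protocol as described does not mark strand, so reads from these genes cannot be told apart where they overlap. The leukocyte list moved in step, with a sum of 15.87 CPM in con, 204.9 CPM in BSF and 329.6 CPM in LSF. In BSF, 9 of its 11 tested genes were higher than in con and 1 was lower. So did 17 heart and muscle genes, whose sum was 10.01 CPM in con, 250.4 and 246 CPM with breakfast skipping (BSF, BSF_C), 639.3 CPM with lunch skipping and 630.1 CPM with dinner skipping. Of these 17 genes, 9 (Myh6 among them) were at 0 in con. The muscle form Cox7a1 was not called higher in any group, and Cox8b had 6 counts or fewer in each. The part of either cell type in the Cox6a2 counts was not tested.

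**Figure D3:**
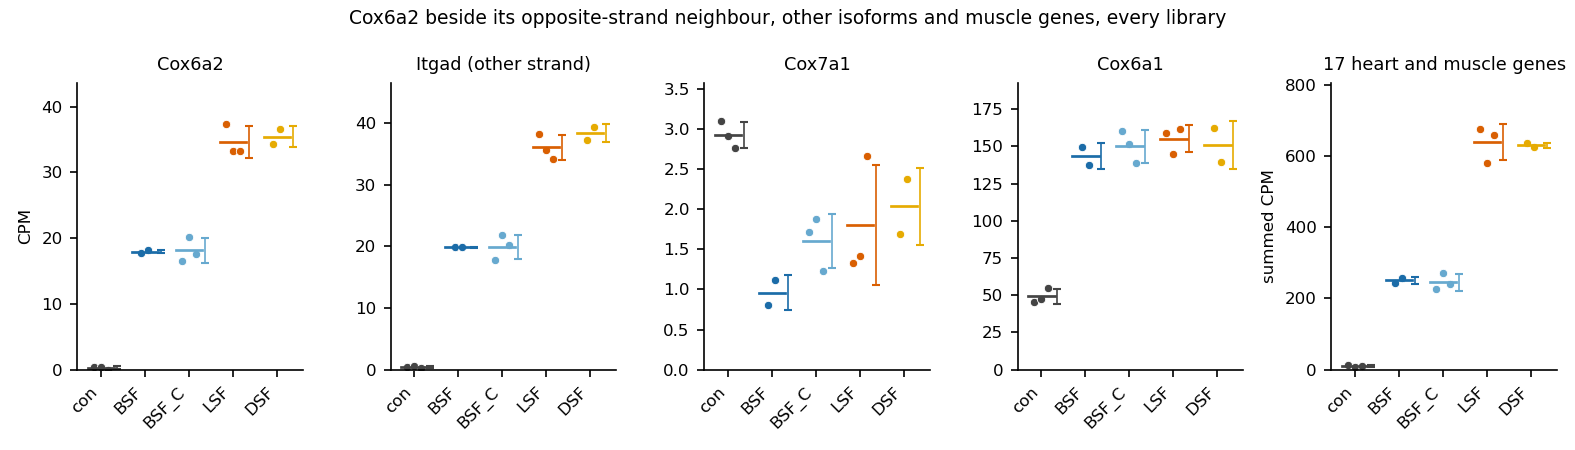
CPM of Cox6a2, of Itgad on the opposite strand, of Cox7a1 and of Cox6a1, and the summed CPM of 17 heart and muscle genes (vertical axes, from 0), by group. Points are libraries, lines are means and bars are SD. Cox6a2, Itgad and the muscle sum show 3 levels, con, BSF with BSF_C, and LSF with DSF, whereas Cox6a1 has 2 and Cox7a1 is highest in con.

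Complex V, the ATP synthase, showed the largest rise in summed level, from 1249 to 1386 CPM in con to 2384 to 2660 CPM in the other libraries, 1.84 times in BSF. Of its 17 genes, BSF had 15 that rose and 1 that fell, LSF 14 and 1, DSF 13 and 1, and BSF_C 13 and 1. Atp5a1, the alpha subunit of the catalytic head, was at 547.8, 534.8 and 580.7 CPM in con, 1057 and 1039 CPM in BSF, 1110, 1113 and 1062 CPM in BSF_C, 1128, 1122 and 1171 CPM in LSF, and 1177 and 1104 CPM in DSF. Con was below all others, with log2 fold changes of 0.92 ± 0.05 (SE) in BSF (adjusted p = 3.95e-22), 0.98, 1.04 and 1.04. Atp5b, the catalytic beta subunit, was at 301.3 to 360 CPM in con and 634.3 to 748.7 CPM elsewhere, and rose by 0.98, 1.03, 1.06 and 1.12. Together these 2 genes held 42.3% and 25.3% of the sum in con and 43.5% and 27.3% in BSF, so the head subunits carried most of it. The epsilon subunit Atp5e was the head gene that did not pass in any of the 4 comparisons.

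All 4 genes of the peripheral stalk, which holds the head still, rose in every group but BSF_C, where 3 of 4 did. Atp5f1, the b subunit, had the largest rise in the complex, from 11.2, 17.1 and 13.6 CPM in con to 43.1 and 52.6 CPM in BSF, 49.5, 47.9 and 48.4 CPM in BSF_C, 36.2, 39.8 and 41.1 CPM in LSF, and 49.4 and 43.8 CPM in DSF. Con was far below the others, and the gene rose by 1.78 ± 0.13 (SE), 1.80, 1.48 and 1.74. Its windows occur to 37.6% in other genes, and Wdr77 overlaps it on the opposite strand. Atp5o, the stalk's cap, rose less, by 0.22, 0.31 and 0.28 in BSF, LSF and DSF, and had 0.16 in BSF_C, and 47.6% of its windows occur elsewhere.

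The 3 genes of the c ring, the rotor that the protons turn, encode the same mature protein yet moved apart. Atp5g2 was at 20.4, 22.7 and 23 CPM in con, 11.3 and 12.8 CPM in BSF, 13.9, 13.3 and 14.6 CPM in BSF_C, 11.3, 15.9 and 15.9 CPM in LSF, and 13.8 and 11.9 CPM in DSF. It was highest in con without overlap and fell by 0.86 ± 0.16 (SE) in BSF (adjusted p = 5.28e-06), 0.66, 0.62 and 0.78. Atp5g1 rose by 0.96, 1.01, 0.83 and 0.98, and Atp5g3 by 0.70, 0.76, 0.90 and 0.80. Of the windows of Atp5g2, 38.3% occur in another gene, mostly Gm10175, against 11.1% for Atp5g1 and 0% for Atp5g3. The small membrane subunit Atp5k rose by 0.89, 1.03, 0.78 and 1.00 (0.50 in BSF with GC and length trends taken out).

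**Figure D4:**
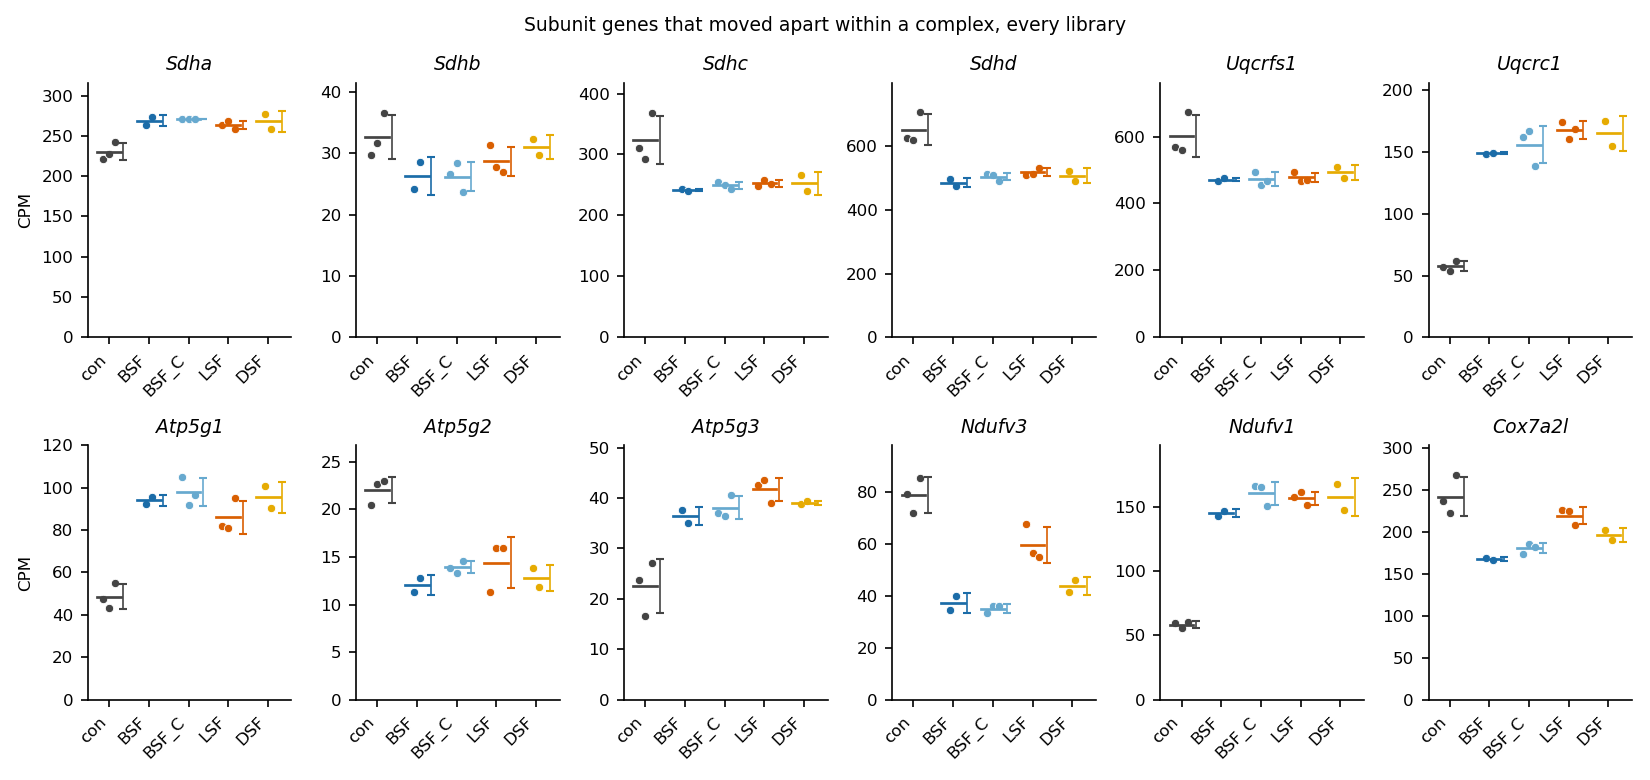
CPM of 12 subunit genes (vertical axes, from 0) by group. Points are libraries, lines are means and bars are SD. Within complex II Sdha was higher than in con while Sdhc and Sdhd were lower, within complex III Uqcrc1 was higher and Uqcrfs1 lower, within the c ring Atp5g1 and Atp5g3 were higher and Atp5g2 lower, and within complex I Ndufv1 was higher and Ndufv3 lower.

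Several members that fell were among those with the highest levels per length of exon in con. By CPM per kb of exon, the order in con was Sdhd (528), Uqcrfs1 (440), Atp5a1 (177), Cox7a2l (164), Ndufb11 (104) and Sdhc (99.7), and 5 of these 6 fell in BSF, with Atp5a1 the exception. In BSF the order was Sdhd (394), Uqcrfs1 (346), Atp5a1 (334), Cox6a1 (204), Atp5b (155) and Atp5d (125). Sdhd stayed first in every group. The 10 members that fell had a median of 86.7 CPM in con, the 60 that rose 11.7 CPM and the 9 not called 6.28 CPM. Con enters both the level and the change here, so this is a description without a test. Median exon length was 1576 bases for those that fell and 1718 bases for those that rose, with a median GC of 50.5% and 50.3%.

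Promoters of these genes have letters that match binding motifs of the factors known to drive them. Windows from 250 bases before to 50 after the start were taken from RefSeq (GRCm38.p6) for 67 members (72 windows) and searched on both strands. The windows beside them are those of all 27025 genes with a window. That set was not limited to the 21868 symbols of the count table or to genes expressed here, so the shares are not matched for expression. The NRF1 motif, GCATGCGC, occurred in 13.9% of members' windows and in 2.71% of all 32851 windows, the GABPA motif, CCGGAAGT, in 6.94% and 3.89%, the YY1 motif, AAGATGGC, in 12.5% and 2.75%, and the motif of estrogen-related receptors, TCAAGGTCA, in 2.78% and 0.423%. The NRF1 letters were found on both sides of the change, in 6 of 47 genes that rose in BSF, 2 of 9 that fell and 2 of 9 not called. In the same order, the YY1 letters were in 5, 1 and 3 genes and the receptor letters in 1, 1 and 0. The GABPA letters were in 4 genes that rose, 0 that fell and 1 not called. The sequences below are the parts before the start of 3 members that rose in all 4 comparisons, with motif letters in capitals. They are written 5′ to 3′ on the gene's own strand, which is minus for all 3, and end before the first base annotated as the gene in either RefSeq or GENCODE. Cox6a1 (chr5:115348982-115349208) holds the NRF1 letters on both strands, overlapping, 162 to 153 bases before the RefSeq start. Ndufa6 (chr15:82354323-82354541), a complex I gene that rose by 0.96 in BSF, holds them 83 to 76 bases before it. Atp5g3 (chr2:73911327-73911576) holds the reverse complement of the receptor motif, TGACCTTGA, 52 to 44 bases before it.
Cox6a1: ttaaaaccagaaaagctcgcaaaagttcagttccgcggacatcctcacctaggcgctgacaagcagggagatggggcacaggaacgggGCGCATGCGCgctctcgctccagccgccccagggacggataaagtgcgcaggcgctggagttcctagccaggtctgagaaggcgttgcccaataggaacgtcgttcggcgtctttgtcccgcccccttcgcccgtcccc
Ndufa6: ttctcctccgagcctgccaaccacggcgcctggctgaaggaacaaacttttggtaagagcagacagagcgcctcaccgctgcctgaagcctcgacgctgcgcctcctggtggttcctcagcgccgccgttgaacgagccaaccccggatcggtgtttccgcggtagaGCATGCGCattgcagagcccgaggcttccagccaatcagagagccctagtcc
Atp5g3: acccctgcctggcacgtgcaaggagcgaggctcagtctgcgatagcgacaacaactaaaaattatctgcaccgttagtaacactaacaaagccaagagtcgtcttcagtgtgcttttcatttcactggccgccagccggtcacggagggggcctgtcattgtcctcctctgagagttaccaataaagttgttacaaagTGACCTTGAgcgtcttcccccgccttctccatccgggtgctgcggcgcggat
A match is a description of these letters and says nothing about binding here.

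The genes of the known regulators did not share 1 direction. Against con, 2 of 11 rose and 4 fell in each breakfast-skipping group, 3 and 5 in LSF, and 3 and 4 in DSF. The share called was 54.5% in BSF, where 70.2% of all genes were called, and 72.7% in LSF, where 72% were. In BSF_C it was 54.5% beside 73% of all genes, and in DSF 63.6% beside 67.7%. Over all 11 genes, the log2 fold changes ran from -1.29 to 0.55 in BSF and from -1.45 to 0.57 in LSF. Nrf1 fell by 0.73 in BSF and by 0.71 in LSF, and Ppargc1b, a coactivator, fell by 0.80 and 0.78. Esrra rose by 0.33 and 0.57, and Gabpa, which overlaps Atp5j on the opposite strand, by 0.55 and 0.45. Ppargc1a had 0.06 in BSF (adjusted p = 0.66) and rose by 0.52 in LSF.

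Assembly factors had smaller medians than the subunits, while those of citrate cycle genes were lower in BSF and higher in the other 3 comparisons with con. Of 16 complex I assembly factors, BSF had 7 that rose and 4 that fell, LSF 2 and 5, DSF 4 and 3, and BSF_C 6 and 4, with medians of 0.40, -0.043, 0.26 and 0.31. Of 37 assembly factors of complexes II to V, 14 rose and 9 fell in BSF, and the medians in the 4 comparisons, in the usual order of groups, were 0.17, 0.16, 0.016 and 0.092. The electron carriers Cycs (cytochrome c) and Cyc1 (cytochrome c1 of complex III) rose in all 4 comparisons, by 0.33 and 0.79 in BSF. Of 13 citrate cycle genes, 8 rose and 4 fell in each comparison, with medians of 0.65, 0.82, 0.80 and 0.87. Their summed CPM stayed near that of con, at 0.978, 0.998, 1.085 and 1.037 times its mean. The 13 protein genes of mitochondrial DNA, by contrast, had 3 higher and 9 lower in BSF, 4 and 7 in LSF, 4 and 8 in DSF, and 3 and 8 in BSF_C. They summed to 122100 to 130400 CPM in con and 88400 to 102300 CPM in the other libraries. As a share of library totals, without trimmed means, the gap was narrower, with 10.9% to 12.1% in con and 9.21% to 10.4% elsewhere. The sum of mitochondrial subunit RNA was thus lower in the libraries where most nuclear subunit genes were higher.

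Among the feeding groups few subunit genes were called. In BSF_C against BSF, no member passed (0 higher, 0 lower by edgeR), and 0 were called by DESeq2 or limma-voom. At an unadjusted p under 0.05 were 4 of 79 members and 573 of all 14300 genes. Of all genes, 0.133% were called in this comparison, 0.105% higher and 0.028% lower. With so few genes called in all, the absence of calls is not particular to the members. The members' median was 0.01 (all genes 0.0045), and 77 of 79 had a log2 difference smaller than 0.5 in size, with a median SE of 0.14. Such differences were not counted over all genes.

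LSF against DSF, whose feeding differed between ZT16 and ZT24, gave 1 member higher and 2 lower, 3.8% of 79. Of all genes, 15.9% were called here, 8.97% higher and 6.91% lower. Ndufv3 was at 67.7, 56.7 and 54.9 CPM in LSF and 41.4 and 46.2 CPM in DSF, without overlap, and was higher in LSF by 0.45 ± 0.10 (SE, adjusted p = 4.17e-04). Without DSF S2 that call was lost (0.37, adjusted p = 0.0505). Cox5b was at 9.41, 11.7 and 9.30 CPM in LSF and 13.9 and 15.7 CPM in DSF, and was lower in LSF by -0.55 ± 0.16 (adjusted p = 0.014). Ndufs8, an iron-sulfur core subunit of complex I, was lower in LSF by -0.35 ± 0.12 (adjusted p = 0.029). The groups did not overlap for Cox5b, and the lowest DSF library was above the highest LSF library for Ndufs8 (36.04 against 31.73 CPM). Cox5b was not called without DSF S3 (-0.46, adjusted p = 0.19), LSF 1 (-0.49, adjusted p = 0.066) or LSF 3 (-0.49, adjusted p = 0.070), or with thinned libraries (-0.33, adjusted p = 0.31). Ndufs8 was not called without DSF S2 (-0.41, adjusted p = 0.072), DSF S3 (-0.29, adjusted p = 0.27), LSF 1 (-0.36, adjusted p = 0.052) or LSF 3 (-0.28, adjusted p = 0.15), with thinned libraries (-0.33, adjusted p = 0.11) or by DESeq2's Wald test (-0.34, adjusted p = 0.070). Enterocyte markers were higher in LSF for 8 of 8 genes, at 31880 to 32630 CPM against 21270 and 21740 CPM in DSF. Of 8 crypt and cycling genes, 5 were lower in LSF and 0 higher, with sums of 1813 to 1822 CPM against 2360 and 2411 CPM in DSF. The part of either list in the members' values was not tested.

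BSF compared with the mean of LSF and DSF gave 2 members higher and 3 lower, 6.33% of 79, where 21.4% of all genes were called, 9.87% higher and 11.5% lower. Ndufb4, a membrane-arm subunit of complex I, was at 8.75 and 9.36 CPM in BSF, 3.62, 5.78 and 4.25 CPM in LSF and 4.81 and 7.12 CPM in DSF, higher by 0.80 ± 0.20 (SE, adjusted p = 0.0025). BSF lay above all 5 other libraries, but 37% of the windows of Ndufb4 occur in another gene. Ndufab1 was at 52.9 and 55.5 CPM in BSF and 37.2 to 45.9 CPM in the other 5 libraries, higher by 0.34 ± 0.10 (adjusted p = 0.0063). Neither was called without BSF 2, at 0.75 (adjusted p = 0.068) and 0.31 (adjusted p = 0.12), or with thinned libraries, at 0.68 (adjusted p = 0.055) and 0.20 (adjusted p = 0.21).

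The 3 lower members were Ndufv3 (-0.46 ± 0.09, adjusted p = 2.23e-04), Cox7a2l (-0.31 ± 0.06, adjusted p = 1.52e-04) and Cox6a2 (-0.96 ± 0.12, adjusted p = 4.71e-09). BSF lay below all LSF and DSF libraries for each of them. Cox6a2 and Itgad again went together, with 17.8 and 18.2 CPM of Cox6a2 in BSF against 33.2 to 37.4 CPM, and the leukocyte and muscle sums were lower in BSF too. The head subunits Atp5a1 and Atp5b had -0.12 (adjusted p = 0.061) and -0.11 (adjusted p = 0.16). When only the groups compared were fitted, Atp5a1 passed at -0.12 (adjusted p = 9.17e-04) and Atp5b at -0.10 (adjusted p = 0.012), and the count of lower members rose to 6. Of the 79 genes, 75 had a log2 difference smaller than 0.5 in size, with a median SE of 0.13, and this was not counted over all genes.

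**Figure D5:**
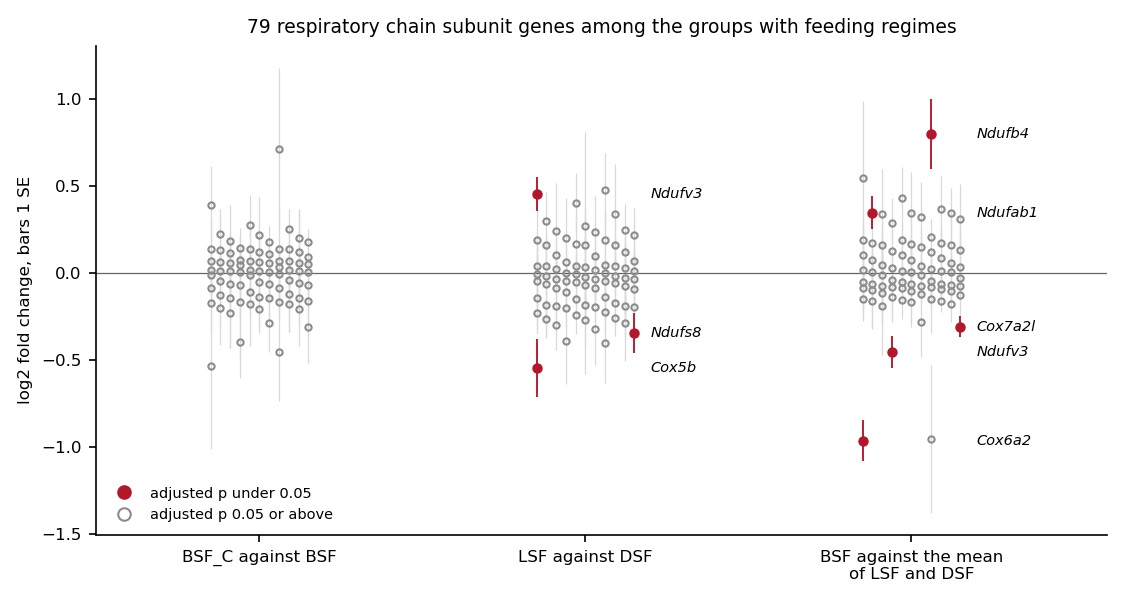
Log2 fold change with 1 SE (vertical axis) of the 79 tested subunit genes in 3 comparisons that leave out con. Red points had an adjusted p under 0.05. No gene is red in BSF_C against BSF, 3 are in LSF against DSF and 5 are in BSF compared with the mean of LSF and DSF, where Cox6a2 lies lowest at -0.96.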

How the data were processed

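Epithelial cells were sorted from jejunum and their polyadenylated RNA was sequenced after random priming, per the labels' protocols, without a step that marks strand. The authors deposited raw counts per gene symbol, whole numbers with no normalization. FastQC 0.11.8, cutadapt 2.9, STAR 2.7.2e, DESeq2 1.32.0 and the builds GRCm38 and mm10 are named in the submitters' processing notes. Which annotation was used, and how strand and multimapped reads were handled, is not given in the sources used here. Identifiers, exon lengths and overlaps came from GENCODE M21 (GRCm38), which matched 82 of the 83 members, all but Atp5md. Shared windows are 50-base windows of a gene's coding transcripts that occur in another gene's transcripts (10% or more of them in 24 members). They also made up 32% of the windows of Cox5a, 21.8% of those of Cox5b, and 12.3% each for Cox4i1 and Cox6a1. A gene of the table lies on the opposite strand of 22 members.

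Genes were filtered by filterByExpr (14300 kept), scaled by trimmed means and tested by edgeR 4.0.16 (R 4.3.3) with the quasi-likelihood F test, two-sided, in 1 fit of 13 libraries with group as the only term and 8 residual degrees of freedom. P-values were adjusted by Benjamini-Hochberg over all genes tested, with a threshold of 0.05. The SE of a log2 fold change is its size over the square root of F. Total counts set the precision: Cox5b, at 3.92 CPM in con 1, had 19 counts there. Named genes were core subunits, isoforms and paralogs, and per comparison and complex the called member with the largest rise and fall at 5 CPM or more. Ndufs3, Ndufa6, Ndufb10, Ndufb11, Ndufa1, Atp5e, Atp5o and Atp5d were named after their values were seen. The members and lists were chosen with earlier results of these data known. A core member is counted but its values are not reported here. The fit was also run on simulated counts in which a small share of genes changed, in BSF alone. Most genes were called against con in these data, so that run does not test the scaling here, and its outcome is not used. Alternatives were DESeq2 1.42.0 (size factors, Wald test), voom of limma 3.58.1, library totals, no filter, fewer groups, a replicate block, thinning to 4851239 counts and each library left out.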

Additional observations from a re-analysis of the deposited data

How the results depend on the processing

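In the comparisons against con, the counts of members higher and lower kept within 1.5 times of those reported under every alternative run. With each library left out they ranged over 49 to 58 and 9 to 10 in BSF, 54 to 57 and 8 to 10 in BSF_C, 50 to 54 and 7 to 8 in LSF, and 48 to 54 and 7 to 8 in DSF. BSF_C against BSF gave 0 throughout. The small counts between feeding groups moved. Higher members in LSF against DSF (1 reported) were 2 with only the groups compared, with con left out of the fit or with GC and length trends removed, and 0 to 1 with a library left out. Lower members (2 reported) were 6 with library totals alone, 4 with only the groups compared or without con in the fit, 1 by DESeq2's Wald test, 0 with thinned libraries, and 0 to 2 with a library left out. In BSF compared with the mean of LSF and DSF, higher members (2 reported) were 0 with thinned libraries and 0 to 3 with a library left out, and lower members (3 reported) were 6 with only the groups compared or without con in the fit, and 3 to 4 with a library left out. The cause was not tested. With totals alone, 63.7%, 59.5% and 63.5% of all calls were higher in BSF_C, LSF and DSF against con (54.5%, 54.1% and 54% reported), 38% in LSF against DSF (56.5%) and 60.9% in BSF compared with the mean of LSF and DSF (46.2%). Cox5a reversed to -0.060 in BSF and -0.019 in BSF_C (adjusted p = 0.83 and 0.94), and Ndufa4 to -0.083 and -0.17 (adjusted p = 0.79 and 0.55), with GC and length trends removed. Replicate numbers did not pair the libraries (no correlation of deviations was above 0.1 over 15 same-numbered pairs). With the replicate block, 58 members were higher and 10 lower in BSF, 57 and 10 in BSF_C and 51 and 8 in LSF, and 0 in BSF_C against BSF. Depth limits the members with few counts most, above all in con, the group with the lowest totals.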
